A study of Mus musculus with 20 samples.

Results

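This account follows 37 genes of fatty acid uptake and oxidation in the hearts of newborn mice. They were chosen by name from a list written with earlier results of these data known, not by a measured value here. All 37 were found among the 55367 genes listed in the deposited count files, and all 37 were among the 16598 genes that passed the filter on low counts. By role, 7 genes serve uptake, activation and the lipid droplet, 4 the carnitine shuttle, 16 beta-oxidation and electron transfer, 6 thioester cleavage, fuel selection and uncoupling, and 4 are transcription regulators. The pups were C57BL/6J mice with no transgene named in the labels, and polyadenylated RNA of the left atrium and the left ventricle was sequenced on postnatal day 4. Hyperoxic pups were kept from birth in 100% oxygen and room-air pups in 21% oxygen. Nursing dams were moved daily from one atmosphere to the other. The groups are hyperoxic atria, room-air atria, hyperoxic ventricles and room-air ventricles, with 5 libraries each and 20 in all. The series' design text gives 5 individual mice in each group, so the spread between libraries is taken as a spread between mice. Litters and the sex of the pups are not given in the sources used here.

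Long-chain fatty acids reach the heart muscle cell bound to albumin or are freed from lipoproteins in the capillary by lipoprotein lipase. Inside the cell they are bound by fatty acid binding protein, activated to acyl-CoA, and either stored in lipid droplets or passed into mitochondria by the carnitine shuttle, where the beta-oxidation cycle shortens them and hands electrons to the respiratory chain. The heart of the mouse turns from glucose and lactate to fatty acids as its main fuel in the days after birth, and nuclear receptors of the PPAR and ERR families with their PGC-1 coactivators drive transcription of many genes of the pathway.

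Total counts ranged from 26510081 to 38244117 per library. Levels are given as CPM (counts scaled to 1e6 of a TMM-adjusted library size), with libraries in the order of their replicate numbers, which are 1, 2, 4, 5 and 6 in hyperoxic ventricles and 1 to 5 elsewhere, and as mean ± SD with n = 5. Every adjusted p of a gene comes from edgeR's quasi-likelihood F-test with Benjamini-Hochberg adjustment over all 16598 genes, and a gene is called higher or lower at an adjusted p under 0.05. The tissues carried the markers of their labels. The summed level of 5 atrial cardiomyocyte markers was 25960 to 50110 CPM in hyperoxic atria and 17760 to 22910 CPM in room-air atria, against 221.9 to 843.8 CPM in hyperoxic ventricles and 1022 to 1930 CPM in room-air ventricles. Hyperoxic atria 2 and 4 and room-air ventricle 4 were tilted towards short transcripts, as the slope of log2 CPM over the log2 exon length of genes was -0.289, -0.283 and -0.22, against -0.069 to 0.133 in the other 17 libraries. Y-linked reads outnumbered those of Xist in all 10 room-air libraries. Among hyperoxic libraries they did so in atrium 2 alone of the 5 and in ventricles 2 and 6 of the 5. The Y-linked share of these reads was 99.5 to 100% in room-air libraries. It was 95.5% in hyperoxic atrium 2, 94.1% and 90.5% in hyperoxic ventricles 2 and 6, and 0 to 0.7% in the other hyperoxic ones. Those 3 libraries held 265, 340 and 593 Xist reads, against 0 to 27 in room-air libraries. Hyperoxic atria 1 and 3 and ventricle 1 held 203, 145 and 101 Y-linked reads beside 27818 to 30875 Xist reads. Whether such libraries held tissue of 1 mouse alone was not tested. By the larger part of these reads the room-air libraries were male and most hyperoxic ones female, so that sex and the oxygen group largely coincide. The comparisons between oxygen levels cannot fully separate them. The sum of 5 ventricular markers was 399.8 to 795.1 CPM in hyperoxic and 479.2 to 921 CPM in room-air atria, against 21040 to 23970 CPM in hyperoxic and 22590 to 41910 CPM in room-air ventricles. The atrial light chain Myl7, which marks atrial tissue, ranged from 2.66 to 127.5 CPM in hyperoxic ventricles and from 19.5 to 529.5 CPM in room-air ventricles.

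Together the 37 genes took 0.804 ± 0.0910% of all counts in hyperoxic atria and 0.667 ± 0.0262% in room-air atria, and 1.41 ± 0.0894% in hyperoxic ventricles against 1.41 ± 0.149% in room-air ventricles. The highest share among hyperoxic atria, 0.905% and 0.894%, stood in the tilted libraries 2 and 4, and the highest of all, 1.66%, in the tilted room-air ventricle 4. The beta-oxidation enzymes made up the largest part in all 20 libraries, with 0.383 to 0.502% in hyperoxic atria, 0.341 to 0.378% in room-air atria, 0.714 to 0.861% in hyperoxic ventricles and 0.662 to 0.859% in room-air ventricles.

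**Figure D1:**
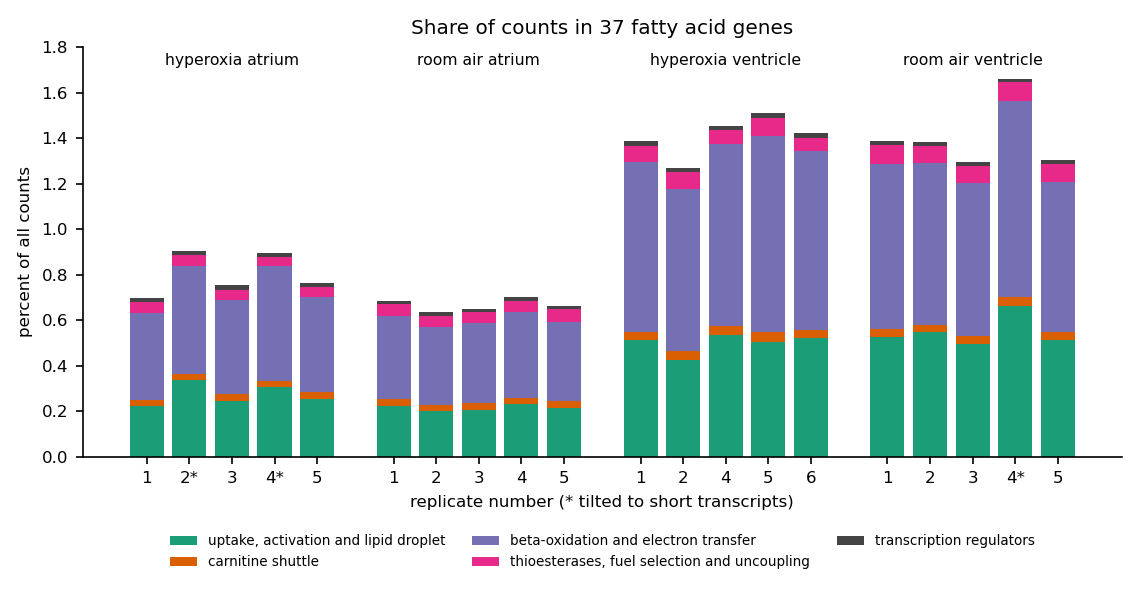
Each bar is 1 library and gives the percent of its counts that fell on the 37 genes, stacked by role, with hyperoxic before room-air libraries in each chamber and an asterisk at the 3 libraries tilted to short transcripts. Atrial bars reach 0.636 to 0.905% and ventricular bars 1.27 to 1.66%, and the highest bar among hyperoxic atria and among room-air ventricles is a tilted library.

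Levels per kilobase of the principal transcript (mean CPM per kb) put the genes in order within a group. Fabp3, the heart-type fatty acid binding protein, stood first in all 4 groups, with 932 ± 316 CPM per kb in hyperoxic atria, 639 ± 62.0 in room-air atria, 2999 ± 297 in hyperoxic ventricles and 3740.0 ± 815 in room-air ventricles. Acadl and Acaa2, the long-chain acyl-CoA dehydrogenase and the thiolase of the last step, followed in both atrial groups with 484 ± 89.4 and 306 ± 86.5 CPM per kb in hyperoxic and 336 ± 15.5 and 253 ± 20.2 in room-air atria. Lpl came next in atria, and in hyperoxic atria it did not differ from Acaa2 beyond the spread (296 ± 86.2 CPM per kb, against 202 ± 21.4 in room-air atria). In ventricles Acadl and Acaa2 came next, and their order did not exceed the spread, with 685 ± 52.8 and 682 ± 30.1 CPM per kb in hyperoxic and 709 ± 97.5 and 731 ± 139 in room-air ventricles. At the low end stood the regulators Ppara and Ppargc1b, with 1.26 ± 0.471 and 2.56 ± 0.382 CPM per kb in hyperoxic and 0.911 ± 0.180 and 1.71 ± 0.263 in room-air atria. Ucp3 had 0.692 ± 0.173 CPM per kb in hyperoxic and 1.99 ± 0.280 in room-air atria, against 18.4 ± 4.01 in hyperoxic and 25.0 ± 1.97 in room-air ventricles.

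The muscle isoform of carnitine palmitoyltransferase 1, Cpt1b, could not be measured as an mRNA level. Of its 50-base stretches, 78.6% also lie in the readthrough gene Gm44502 on the same strand, and Cpt1b held only 5 to 196 counts per library, with 8 and 5 counts in hyperoxic atria 2 and 4 and 10 in room-air ventricle 4. Its values below describe those counts alone. Of the other genes, Etfb shares 44.8% of its 50-base stretches with other genes, Fabp3 29.2%, Acot2 27.7% (24.5% with its neighbour Acot1), Hadhb 19.7% and Acot1 19.2%, and reads from such stretches cannot be assigned to 1 gene. The strand setting of the counting is not given in the sources used here, and 9 of the genes (Fabp3, Acsl1, Acadvl, Hadha, Echs1, Eci2, Etfdh, Ucp2 and Esrra) overlap a gene on the opposite strand, whose reads cannot be told apart without it.

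The question of the first comparison is how the neonatal left atrium responds to hyperoxia. In hyperoxic atria 15 of the 37 genes were higher and 4 lower, while 18 did not pass. The median log2 difference was 0.27 over the 37 genes and -0.06 over all genes tested. Over all genes 43.9% were called (19.7% higher and 24.2% lower), so the called share of the 37 was near that of the whole table. The enzymes and uptake proteins that were called were mostly higher, and the uncoupling proteins Ucp2 and Ucp3, the transporter Slc27a1 and Cpt1a were lower. In bulk tissue, fewer cells of a type and less RNA per cell cannot be told apart. Without the 3 tilted libraries 12 genes were called higher and 4 lower, 13 of the 19 calls held in the same direction, and the median was 0.08. Over all genes 39.0% were called in that fit (2907 higher and 3720 lower of 17011), near the share of the 37. With the length slope of each library as a covariate 10 were higher and 8 lower, and 11 of the 19 calls held. There 40.3% of all genes were called (2929 higher and 3754 lower of 16598). With both the Y-linked share and the length slope as covariates, 4 were higher and 5 lower, against 21.5% of all genes called in that fit. There 5 of the 19 calls held, those of Acot2, Ucp2, Ucp3, Ppargc1b and Esrra. Within atrial groups the Y-linked share varied widely only through hyperoxic atrium 2, which was also tilted. That fit therefore leans on 1 tilted atrium and on the hyperoxic ventricles, and oxygen and sex cannot be told apart by the calls that held.

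**Figure D2:**
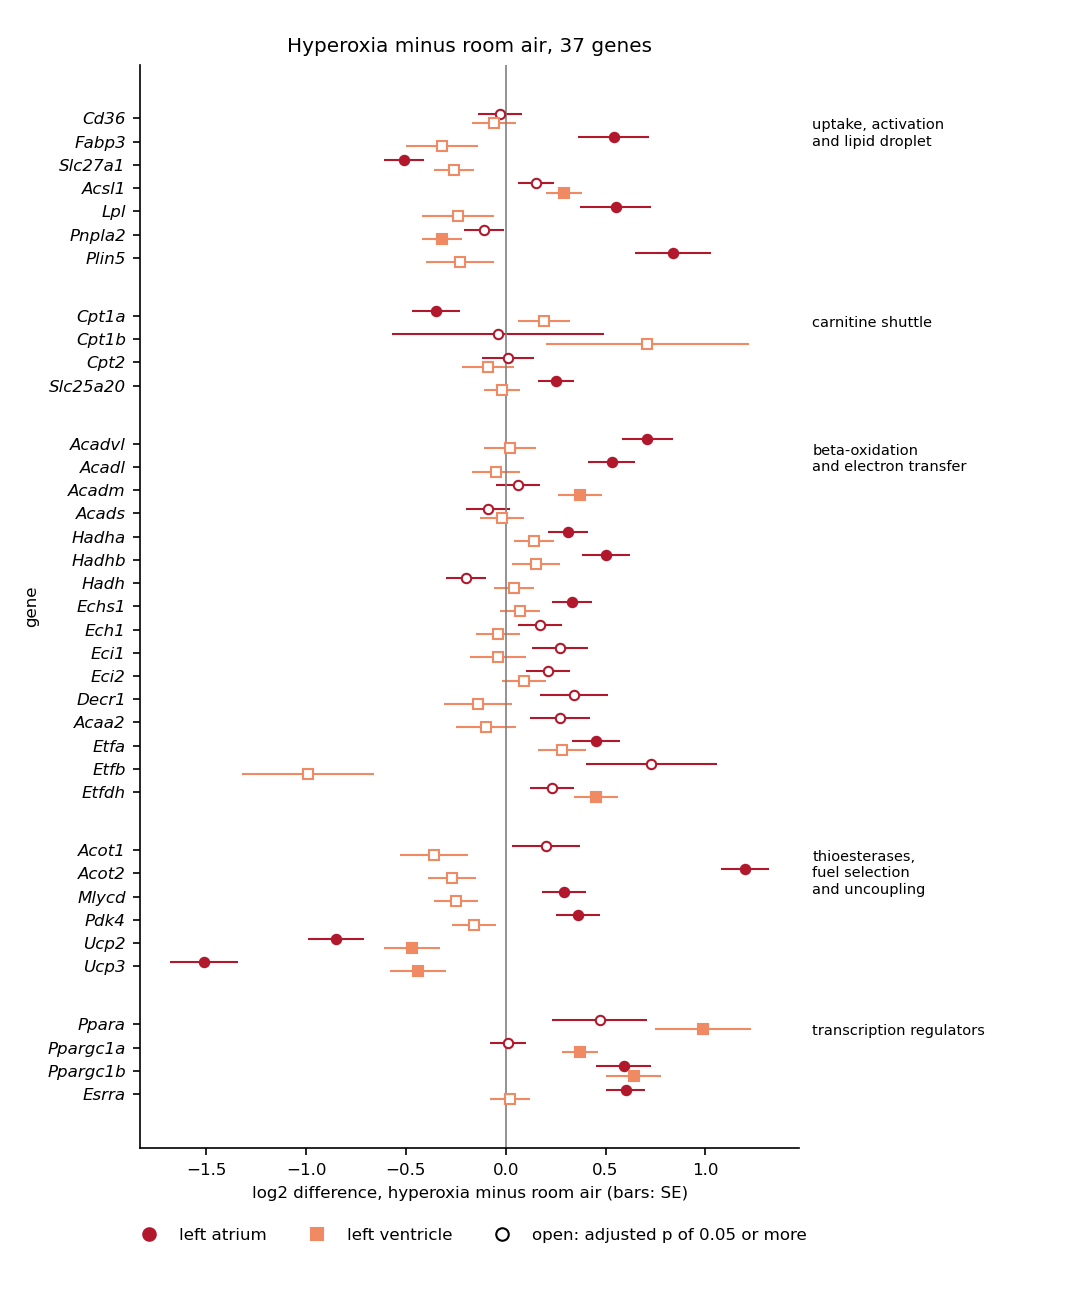
The log2 difference between hyperoxia and room air is on the horizontal axis for each of the 37 genes, grouped by role, with circles for the left atrium, squares for the left ventricle, bars for the standard error and filled symbols for calls. Acot2 (1.20) and Ucp3 (-1.51) lie farthest from 0 in the atrium, and Ppara (0.99) is the highest and Etfb (-0.99, not called) the lowest in the ventricle.

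Among the 7 genes of uptake, activation and the lipid droplet, 3 were higher (Plin5, Lpl and Fabp3), 1 was lower (Slc27a1) and 3 did not pass in hyperoxic atria. Plin5, which coats lipid droplets at mitochondria of oxidative tissues (chromosome 17, 56111601 to 56117596), had 6.08, 11.2, 7.48, 10.2 and 7.56 CPM in hyperoxic atria, against 5.92, 3.56, 5.05, 4.47 and 4.74 CPM in room-air atria. The groups did not overlap, with the 2 highest values in the tilted libraries 2 and 4 (log2 difference 0.84, SE 0.19, edgeR adjusted p = 0.00097). In the fit that leaves out the tilted libraries its log2 difference was 0.57 (edgeR adjusted p = 0.0013). Lpl, lipoprotein lipase, had 849.6, 1718, 1041, 1447 and 1035 CPM in hyperoxic atria, against 866, 753, 751, 963 and 821 CPM in room-air atria. The groups overlapped, and the 2 tilted libraries were again the highest (log2 difference 0.55, SE 0.18, edgeR adjusted p = 0.015). Fabp3, whose protein carries fatty acids through the cytosol, had 516, 1054, 607, 1043 and 615 CPM in hyperoxic atria, against 572, 468, 480.0, 579 and 529.8 CPM in room-air atria. Values over 1000 CPM stood in the tilted libraries alone and the other 3 lay near the room-air range (log2 difference 0.54, SE 0.18, edgeR adjusted p = 0.018). Neither gene was called without the tilted libraries, with log2 differences of 0.23 for Lpl and 0.14 for Fabp3 (edgeR adjusted p = 0.19 and 0.32). Leaving out hyperoxic atrium 2 alone ended both calls, and leaving out atrium 4 ended that of Fabp3 (log2 differences 0.40 to 0.41).

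Slc27a1, the fatty acid transport protein 1, went the other way, with 48.2 ± 6.03 CPM in hyperoxic and 68.7 ± 3.31 CPM in room-air atria, and the groups did not overlap (log2 difference -0.51, SE 0.10, edgeR adjusted p = 0.00028). The fatty acid translocase Cd36 averaged 256 ± 27.8 CPM in hyperoxic and 262 ± 19.8 CPM in room-air atria (log2 difference -0.03, SE 0.11, edgeR adjusted p = 0.84). Values for Acsl1, which activates long-chain fatty acids, and Pnpla2, the lipase that opens stored triglyceride, likewise did not pass, at log2 differences of 0.15 and -0.11 (edgeR adjusted p = 0.16 and 0.38).

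In the carnitine shuttle 1 of 4 genes was higher and 1 lower in hyperoxic atria. Cpt1a, the isoform of carnitine palmitoyltransferase 1 that is typical of liver and of the fetal heart, had 111, 66.2, 107, 67.2 and 99.6 CPM in hyperoxic atria, against 118, 119, 122, 101 and 114 CPM in room-air atria. Atria 2 and 4 were far below the others, of which 2 lay inside the room-air range (log2 difference -0.35, SE 0.12, edgeR adjusted p = 0.028). Slc25a20, the carnitine-acylcarnitine translocase of the inner membrane, had 78.6, 102, 90.4, 108 and 85.5 CPM in hyperoxic atria, against 82.9, 70.0, 76.0, 80.4 and 80.4 CPM in room-air atria. Here atria 2 and 4 were the highest and the groups overlapped (log2 difference 0.25, SE 0.09, edgeR adjusted p = 0.028). The call of Cpt1a ended without hyperoxic atrium 2 or 4, room-air atrium 1, 2 or 3, or hyperoxic ventricle 5 (-0.34 to -0.25), and that of Slc25a20 without hyperoxic atrium 2 or 4 or room-air atrium 2 or 3 (0.20 to 0.24). Neither passed without the tilted libraries, at log2 differences of -0.12 and 0.12 (edgeR adjusted p = 0.24 and 0.19). Cpt2, which returns the acyl group to CoA in the matrix, averaged 76.4 ± 13.5 CPM in hyperoxic and 76.0 ± 2.23 CPM in room-air atria (log2 difference 0.01, SE 0.13, edgeR adjusted p = 0.97).

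Of the 16 genes of beta-oxidation and electron transfer, 6 were higher in hyperoxic atria (Acadvl, Acadl, Hadhb, Etfa, Echs1 and Hadha), none was lower and 10 did not pass. Their median log2 difference was 0.29. Of these, Acadvl, Acadl, Hadha and Hadhb encode enzymes that handle long chains. Acadvl, the very-long-chain acyl-CoA dehydrogenase (chromosome 11, 70010183 to 70015411), had 322, 484, 374, 509.7 and 339 CPM in hyperoxic atria, against 249.6, 226, 249, 267 and 246 CPM in room-air atria. All 5 hyperoxic libraries lay above the room-air ones (log2 difference 0.71, SE 0.13, edgeR adjusted p = 0.00017). Acadl had 754, 1074, 852, 1144 and 813 CPM in hyperoxic atria, against 652, 608, 621, 682 and 657 CPM in room-air atria, again with no overlap (log2 difference 0.53, SE 0.12, edgeR adjusted p = 0.00095). Hadhb, the thiolase subunit of the mitochondrial trifunctional protein, had 137, 157, 161, 203 and 161 CPM in hyperoxic atria, against 114, 104, 113, 122 and 126 CPM in room-air atria. These groups too did not overlap (log2 difference 0.50, SE 0.12, edgeR adjusted p = 0.0016). These 3 genes stayed called without the tilted libraries, at log2 differences of 0.48, 0.33 and 0.40 (edgeR adjusted p = 0.00017, 0.0031 and 0.0017). With the Y-linked share as a covariate the call of Hadhb ended (0.39, edgeR adjusted p = 0.062). With the Y-linked share and the length slope together all 3 calls ended, at 0.28, 0.11 and 0.04 (edgeR adjusted p = 0.1, 0.5 and 0.86).

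Hadha, the partner subunit encoded head to head with Hadhb on chromosome 5, had a log2 difference of 0.31 and Etfa, a subunit of the electron transfer flavoprotein, 0.45 (edgeR adjusted p = 0.012 and 0.0035), and both were called without the tilted libraries (0.25 and 0.24). Neither was called in the fit with the length slope (0.19 and 0.20, edgeR adjusted p = 0.067 and 0.06), and the Y-linked share added to it gave 0.12 and 0.05. Echs1, the short-chain enoyl-CoA hydratase, had a log2 difference of 0.33 (edgeR adjusted p = 0.013), which was 0.16 and not called without them. Leaving out hyperoxic atrium 4 alone also ended the call of Echs1 (0.24, edgeR adjusted p = 0.051). The medium-chain and short-chain dehydrogenases Acadm and Acads averaged 197 ± 26.9 and 59.0 ± 7.75 CPM in hyperoxic atria and 189 ± 4.40 and 62.9 ± 5.45 CPM in room-air atria (log2 differences 0.06 and -0.09, edgeR adjusted p = 0.65 and 0.52). Hadh, the short-chain hydroxyacyl-CoA dehydrogenase, did not pass at -0.20 (edgeR adjusted p = 0.11) but was called lower without the tilted libraries (-0.38, edgeR adjusted p = 0.00042). The isomerases and reductase for unsaturated chains, Ech1, Eci1, Eci2 and Decr1, and the thiolase Acaa2 had log2 differences of 0.17, 0.27, 0.21, 0.34 and 0.27, none past the test. Leaving out the tilted libraries gave -0.03, -0.06, 0.01, 0.04 and -0.05.

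**Figure D3:**
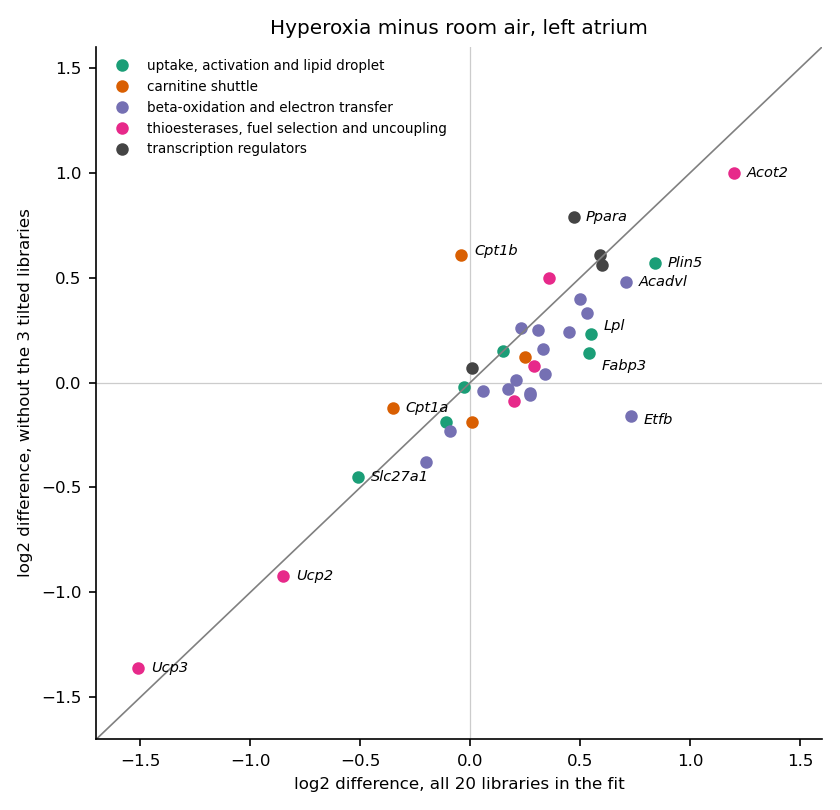
Each point is 1 of the 37 genes, with its atrial log2 difference between hyperoxia and room air from all libraries on the horizontal axis and from the fit without the 3 tilted libraries on the vertical axis, and the line marks equal values. Acot2 (1.20 and 1.0), Ucp2 (-0.85 and -0.92) and Ucp3 (-1.51 and -1.36) lie near the line, while Fabp3 (0.54 and 0.14), Lpl (0.55 and 0.23) and Etfb (0.73 and -0.16) lie below it.

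Of the 6 genes of thioester cleavage, fuel selection and uncoupling, 3 were higher (Acot2, Pdk4 and Mlycd), 2 were lower (Ucp2 and Ucp3) and 1 did not pass in hyperoxic atria. Acot2, a thioesterase of the mitochondrial matrix that frees fatty acids from acyl-CoA (chromosome 12, 83987861 to 83993873), had 50.1, 78.8, 58.5, 68.5 and 52.4 CPM in hyperoxic atria, against 29.2, 23.1, 26.6, 23.4 and 32.4 CPM in room-air atria. Every hyperoxic library lay above every room-air library, a 2.29-fold difference (log2 difference 1.20, SE 0.12, edgeR adjusted p = 1.2e-07). It was called in all 35 other settings, between 0.96 and 1.55 on the log2 scale. Its neighbour Acot1, the cytosolic thioesterase with which it shares reads, averaged 18.4 ± 4.97 CPM in hyperoxic and 15.9 ± 2.03 CPM in room-air atria (log2 difference 0.20, SE 0.17, edgeR adjusted p = 0.34).

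Ucp3, the uncoupling protein of skeletal muscle and heart mitochondria (chromosome 7, 100472990 to 100486432), had 1.22, 1.19, 1.82, 0.958 and 1.23 CPM in hyperoxic atria, against 4.28, 2.97, 3.39, 3.85 and 3.99 CPM in room-air atria. All hyperoxic values lay below all room-air values (log2 difference -1.51, SE 0.17, edgeR adjusted p = 4.9e-07), a level of 0.352 times that of room air. Ucp2, its more widely expressed relative next to it on the same strand (100493337 to 100502020), had 185, 194, 156, 169 and 143 CPM in hyperoxic atria, against 301, 299.5, 269, 287 and 369 CPM in room-air atria. It was lower as well with no overlap (log2 difference -0.85, SE 0.14, edgeR adjusted p = 4.4e-05), and both uncoupling proteins were called in all 35 other settings. Pdk4, the kinase that restrains pyruvate dehydrogenase, averaged 103 ± 15.8 CPM in hyperoxic and 80.4 ± 6.17 CPM in room-air atria, and tilted atrium 2 lay inside the room-air range (log2 difference 0.36, SE 0.11, edgeR adjusted p = 0.014). With the Y-linked share as a covariate its log2 difference was 0.02 (edgeR adjusted p = 0.91). Within atrial groups that share varied widely only through tilted atrium 2, which held the lowest hyperoxic Pdk4 value at 80.3 CPM. That fit therefore cannot tell oxygen, sex and tilt apart for Pdk4. Mlycd, which removes the Cpt1 inhibitor malonyl-CoA, was called at 0.29 (SE 0.11, edgeR adjusted p = 0.046), and the call ended without the tilted libraries (0.08, edgeR adjusted p = 0.48). It also ended without any 1 of 11 libraries (0.21 to 0.30), namely hyperoxic atria 2 and 4, room-air atria 1, 2, 3 and 5, hyperoxic ventricles 1, 2 and 6, and room-air ventricles 1 and 2.

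Promoter sequences were set beside these genes because Acot2 and Ucp3 carried the widest atrial differences of the 37 in either direction, and the PPAR and ERR families bind DNA elements of known letters. RefSeq windows of GRCm38.p6, from 250 bases before to 50 after a start, were matched by symbol for 32 of the 37 genes, in 36 windows. Windows of Lpl, Ppargc1b, Cpt1b, Acaa2 and Decr1 were not used here. The PPAR element DR1, AGGTCANAGGTCA on either strand with at most 2 mismatches, was found in 5 of 36 windows (13.9%), against 1268 of 32851 windows of all genes (3.86%). The ERR element TCAAGGTCA, on either strand with no mismatch, was in 0 of 36 windows and in 139 of 32851 (0.423%). The letters AGGTCA are shared by both motifs. The window of Ucp3, chr7:100472741-100473040 on the plus strand, holds a DR1 match in capitals, and that of Acot2, chr12:83987611-83987910 on the plus strand, holds none.
Ucp3 promoter: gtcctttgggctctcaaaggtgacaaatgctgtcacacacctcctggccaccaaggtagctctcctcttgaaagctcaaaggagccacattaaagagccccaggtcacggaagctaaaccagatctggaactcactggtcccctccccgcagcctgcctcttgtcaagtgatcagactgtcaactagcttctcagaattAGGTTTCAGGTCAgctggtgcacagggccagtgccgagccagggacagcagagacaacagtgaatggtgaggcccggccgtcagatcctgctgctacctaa
Acot2 promoter: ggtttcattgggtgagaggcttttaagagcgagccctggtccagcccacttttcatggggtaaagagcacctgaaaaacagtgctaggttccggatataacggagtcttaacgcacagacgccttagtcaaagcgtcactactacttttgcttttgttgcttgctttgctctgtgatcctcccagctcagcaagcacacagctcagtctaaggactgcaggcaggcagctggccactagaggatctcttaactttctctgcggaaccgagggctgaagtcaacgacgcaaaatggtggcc
The 5 matches are printed along the motif with capitals at letters that equal it, and a match is a description of the letters alone.
Cd36 (chromosome 5): AaGTCAgAGGcCA
Ucp3 (chromosome 7): AGGTttcAGGTCA
Echs1 (chromosome 7): AGGTCAcgGGTCc
Etfa (chromosome 9): AGGgCAaAGGTaA
Slc25a20 (chromosome 9): AGGTgAaAGGTCg
In hyperoxic atria these 5 genes did not move alike, with log2 differences of -0.03 for Cd36, -1.51 for Ucp3, 0.33 for Echs1, 0.45 for Etfa and 0.25 for Slc25a20.

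Of the 4 transcription regulators, 2 were higher in hyperoxic atria and 2 did not pass (median log2 difference 0.53). Esrra, the estrogen-related receptor alpha that binds promoters of oxidative genes (chromosome 19, 6910977 to 6921813), had 118, 147, 134, 113 and 112 CPM in hyperoxic atria, against 85.5, 84.3, 76.5, 90.4 and 74.5 CPM in room-air atria. The groups did not overlap and the tilted libraries were not the pair of highest values (log2 difference 0.60, SE 0.10, edgeR adjusted p = 3.3e-05). Ppargc1b, the coactivator PGC-1 beta, had 9.09, 10.2, 11.3, 8.15 and 8.07 CPM in hyperoxic atria, against 5.41, 5.58, 7.21, 5.64 and 7.37 CPM in room-air atria. It too did not overlap (log2 difference 0.59, SE 0.14, edgeR adjusted p = 0.0022), and both genes were called in all 35 other settings. The coactivator PGC-1 alpha, Ppargc1a, averaged 49.7 ± 5.24 CPM in hyperoxic and 49.4 ± 5.12 CPM in room-air atria (log2 difference 0.01, SE 0.09, edgeR adjusted p = 0.94). Ppara, the lipid-sensing nuclear receptor, had 3.6, 2.52, 4.11, 1.73 and 4.88 CPM in hyperoxic atria, against 1.70, 2.90, 2.68, 2.20 and 2.66 CPM in room-air atria (log2 difference 0.47, SE 0.24, edgeR adjusted p = 0.11). The tilted atria 2 and 4 held its lowest hyperoxic values, and without them it was called higher at 0.79 (edgeR adjusted p = 0.0043).

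**Figure D4:**
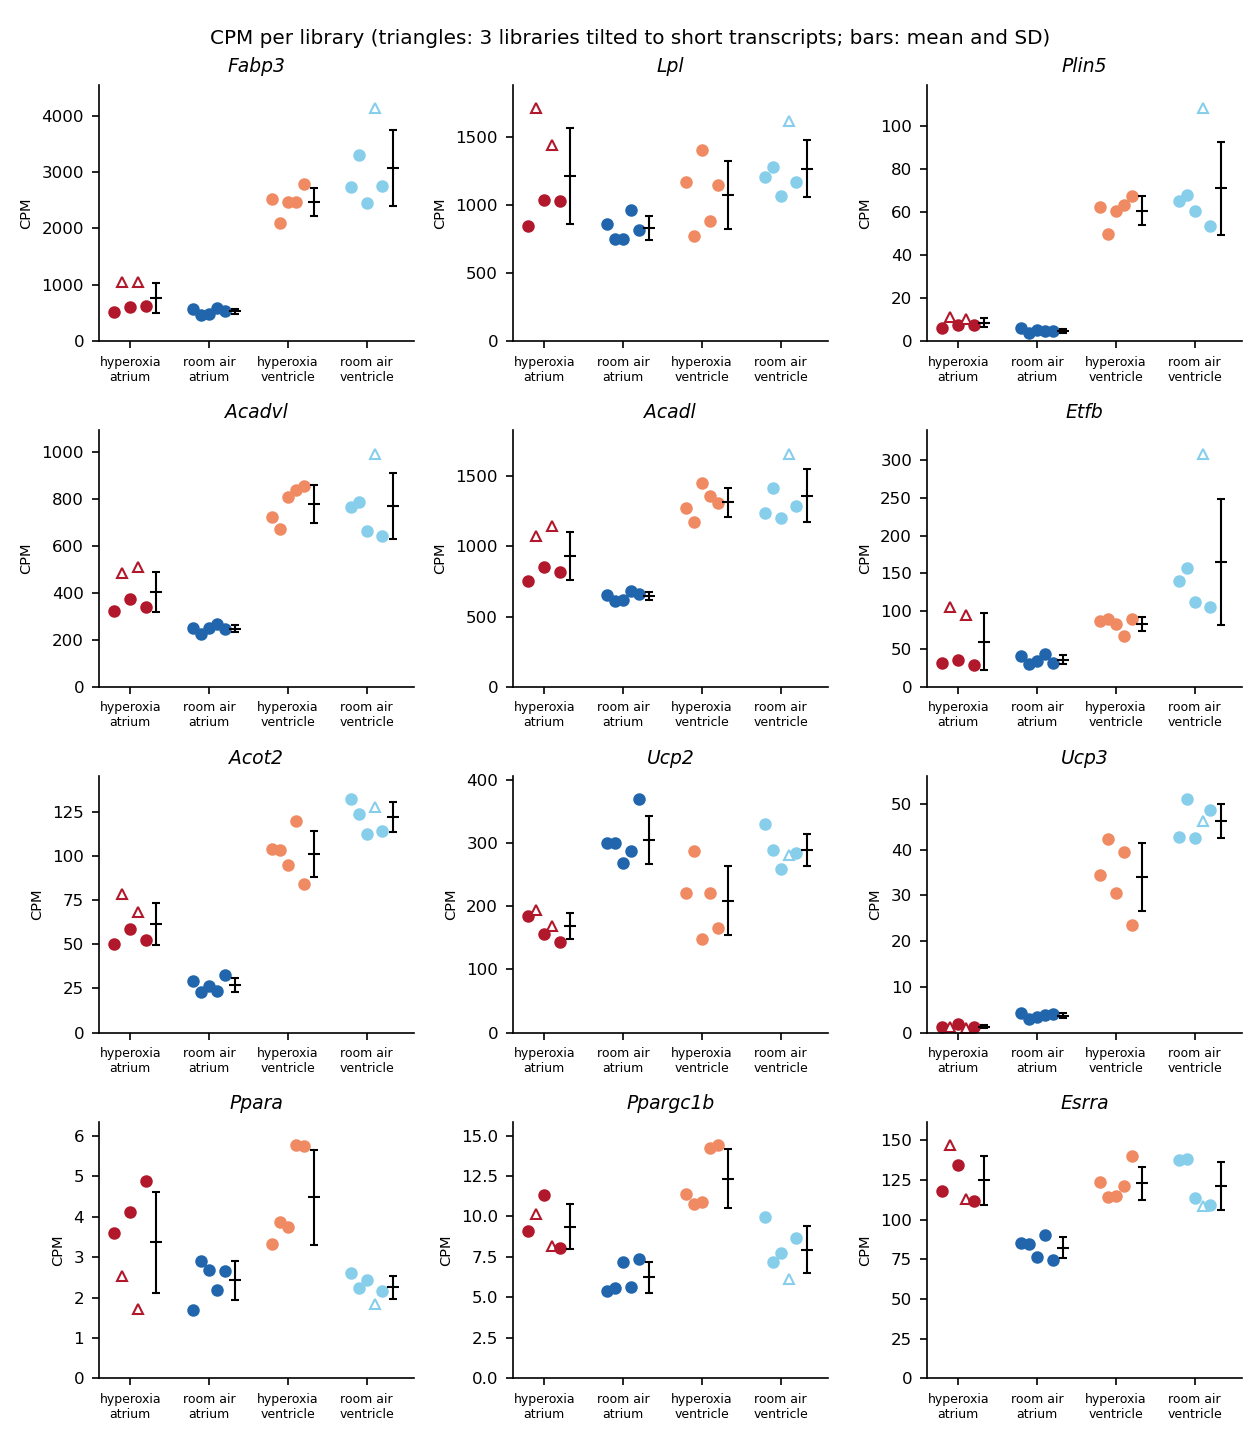
CPM in every library are plotted for 12 of the genes, with hyperoxic libraries left of room-air ones in each chamber, open triangles for the 3 tilted libraries, and bars for the mean and SD of 5 libraries. Acot2 and Esrra lie higher and Ucp2 and Ucp3 lower in all 5 hyperoxic atria than in room-air atria, while the triangles stand apart for Fabp3, Lpl and Etfb.

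The atrial comparison called 19.7% of all genes higher and 24.2% lower. Beside this, a wider list of 77 other genes of fatty acid handling had 18 higher, 25 lower and 34 not passing in hyperoxic atria. The highest of those named by rule were Plin2, another lipid droplet coat (0.83, SE 0.10, edgeR adjusted p = 1.4e-06), Hif1a, the hypoxia-inducible factor (0.70), and Acot13, a further thioesterase (0.65). Among the lower ones were Fabp4, the fatty acid binding protein of capillary endothelium, with 69.7 ± 29.3 CPM in hyperoxic and 186 ± 19.9 CPM in room-air atria (-1.42, edgeR adjusted p = 1.4e-05), and Mgll, monoglyceride lipase (-1.26, edgeR adjusted p = 1.6e-11).

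Markers of other cells moved in the same comparison, in which 43.9% of all genes were called. All 9 capillary endothelial markers were lower in hyperoxic atria, and their sum was 712.7 to 942.6 CPM there, against 1415 to 1604 CPM in room-air atria. The 9 include Fabp4 and Gpihbp1, which also belong to the wider list above. Of 6 macrophage markers 5 were higher and 0 lower (195.8 to 416.8 CPM against 134.4 to 173.6 CPM), and of 5 fibroblast markers 1 was higher and 4 lower (1507 to 2099 CPM against 2940 to 3664 CPM). Of 6 cardiomyocyte markers 1 was higher and 3 lower, and their sums overlapped at 21920 to 34740 CPM in hyperoxic and 25180 to 31930 CPM in room-air atria. Of 5 ventricular cardiomyocyte markers 1 was higher and 3 lower in hyperoxic atria, with a median log2 difference of -1.2 and sums of 399.8 to 795.1 CPM there, against 479.2 to 921.0 CPM in room-air atria. Among them Myl2, the ventricular myosin light chain, had 5.59 to 22.0 CPM in hyperoxic atria, against 7.42 to 328 CPM in room-air atria. Its highest atrial value, in room-air atrium 1, stood in the library that also held the highest atrial level of Ucp3, a gene with far higher levels in ventricles. That match rests on 1 library. The other room-air atria had 7.42 to 15.0 CPM of Myl2 and 2.97 to 3.99 CPM of Ucp3. Hyperoxic atrium 3 had 22.0 CPM of Myl2 and 1.82 CPM of Ucp3. No white adipocyte marker passed the filter, with summed levels of at most 0.3399 CPM in hyperoxic and 1.875 CPM in room-air atria. The part of these cell types in the atrial differences was not tested.

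In the left ventricle, 6 of the 37 genes were higher under hyperoxia, 3 were lower and 28 did not pass. Their median log2 difference was -0.04, against -0.01 over all genes. Over all genes 10.9% were called (5.64% higher and 5.28% lower). Of the 4 regulators 3 were higher, and the others called were Acsl1, Acadm and Etfdh (higher) and Pnpla2, Ucp2 and Ucp3 (lower). No gene of the carnitine shuttle was called. These calls depended on the fit. With the Y-linked share as a covariate edgeR called 0 of the 37 (7 at an unadjusted p under 0.05), and 1.2% of all genes (102 higher and 98 lower of 16598). The log2 differences there were 0.93 for Ppara, 0.69 for Ppargc1b and -0.50 for Ucp3, against 0.99, 0.64 and -0.44 without the covariate. With the level of Myl7 in ventricles as a covariate it also called 0 (9 at an unadjusted p under 0.05), and 0.681% of all genes (38 higher and 75 lower). DESeq2 without a covariate called 10 of the 37, beside 1276 genes higher and 1516 lower of all 16598. All 9 genes kept their direction under both covariates. All 9 calls held without the tilted libraries, where 8 genes were higher and 5 lower, beside 19.4% of all genes called. Length slopes of hyperoxic ventricles (0.036 to 0.096) all lay above those of room-air ventricles (-0.22 to 0.024). With the length slope as a covariate 12 were higher and 1 lower, and 7 of the 9 calls held, beside 12.3% of all genes. With the Y-linked share added, 4 were higher and 1 lower, and 2 of the 9 calls held, beside 5.74% of all genes. Without hyperoxic ventricle 4 and room-air ventricles 1 and 4, which lay apart in an earlier analysis, 1 gene was called (Ppargc1b, with 8 at an unadjusted p under 0.05), beside 1.81% of all genes (157 higher and 152 lower of 17083). Leaving out hyperoxic ventricle 4, 5 or 6 or room-air ventricle 1 or 2 alone left 4 or 5 calls.

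Ppara had 3.32, 3.87, 3.74, 5.78 and 5.74 CPM in hyperoxic ventricles, against 2.62, 2.24, 2.43, 1.85 and 2.15 CPM in room-air ventricles. All hyperoxic values lay above all room-air values, a 1.99-fold difference (log2 difference 0.99, SE 0.24, edgeR adjusted p = 0.014). Ppargc1b had 11.4, 10.8, 10.9, 14.2 and 14.4 CPM in hyperoxic ventricles, against 9.99, 7.17, 7.74, 6.16 and 8.64 CPM in room-air ventricles, and the groups did not overlap (log2 difference 0.64, SE 0.14, edgeR adjusted p = 0.0098). Ppargc1a had 79.8, 75.9, 86.6, 86.1 and 82.4 CPM in hyperoxic ventricles, against 56.6, 56.6, 60.3, 71.9 and 72.4 CPM in room-air ventricles. The 2 highest room-air values, in libraries 4 and 5, came close to the lowest hyperoxic one (log2 difference 0.37, SE 0.09, edgeR adjusted p = 0.018), and the call ended without room-air ventricle 2 (0.33, edgeR adjusted p = 0.051). Esrra averaged 123 ± 10.4 CPM in hyperoxic and 121 ± 15.1 CPM in room-air ventricles (log2 difference 0.02, SE 0.10, edgeR adjusted p = 0.92).

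Acadm, the dehydrogenase for medium chains, had 483, 450.4, 596, 649.5 and 556 CPM in hyperoxic ventricles, against 379, 442, 388, 469 and 441 CPM in room-air ventricles. The lowest hyperoxic value fell inside the room-air range (log2 difference 0.37, SE 0.11, edgeR adjusted p = 0.031). Etfdh, which passes electrons from the flavoprotein to ubiquinone, had 331, 288, 483, 423 and 391 CPM in hyperoxic ventricles, against 283, 303, 264, 265 and 286 CPM in room-air ventricles, with 1 hyperoxic library inside the room-air range (log2 difference 0.45, SE 0.11, edgeR adjusted p = 0.015). Acsl1 had 491, 463, 515, 603 and 479 CPM in hyperoxic ventricles, against 412, 395, 415, 468 and 398 CPM in room-air ventricles. Only the tilted room-air ventricle 4 reached into the hyperoxic range (log2 difference 0.29, SE 0.09, edgeR adjusted p = 0.036). The call of Acadm ended without hyperoxic ventricle 4, 5 or 6 or room-air ventricle 1 or 3 (0.30 to 0.36), and that of Acsl1 without hyperoxic ventricle 4 or 5 or room-air ventricle 1, 2, 3 or 5 (0.22 to 0.29).

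The 14 other genes of beta-oxidation and electron transfer did not pass in ventricles, with log2 differences from -0.99 for Etfb to 0.28 for Etfa. Etfb, the second subunit of the flavoprotein, had 87.4, 89.9, 82.8, 66.99 and 89.4 CPM in hyperoxic ventricles, against 140.1, 158, 112, 309 and 106 CPM in room-air ventricles. The groups did not overlap and the tilted room-air ventricle 4 held by far the highest value (log2 difference -0.99, SE 0.33, edgeR adjusted p = 0.059). Without the tilted libraries Etfb was called lower at -0.63 (edgeR adjusted p = 0.0018), and the share of its sequence found in other genes limits its counts.

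Pnpla2 had 109, 119, 97.3, 135 and 111 CPM in hyperoxic ventricles, against 157, 139, 124, 166 and 128 CPM in room-air ventricles, and hyperoxic ventricle 5 reached into the room-air range (log2 difference -0.32, SE 0.10, edgeR adjusted p = 0.044). Ucp2 had 222, 288, 149, 221 and 166 CPM in hyperoxic ventricles, against 329.5, 288, 259, 281 and 285 CPM in room-air ventricles. Hyperoxic ventricle 2 lay inside the room-air range and the other 4 below it (log2 difference -0.47, SE 0.14, edgeR adjusted p = 0.037). Ucp3 had 34.4, 42.3, 30.4, 39.5 and 23.5 CPM in hyperoxic ventricles, against 42.9, 51.0, 42.6, 46.3 and 48.6 CPM in room-air ventricles. Its groups touched without overlap (log2 difference -0.44, SE 0.14, edgeR adjusted p = 0.045). The call of Ucp2 ended without hyperoxic ventricle 4, 5 or 6 or room-air ventricle 1, 2, 4 or 5 (-0.48 to -0.36). That of Pnpla2 ended without any 1 of 12 libraries (-0.33 to -0.26), namely hyperoxic ventricles 1, 2, 4 and 6, room-air ventricles 1, 2 and 4, hyperoxic atrium 3 and room-air atria 1 to 4. That of Ucp3 ended without hyperoxic ventricle 1, 4, 5 or 6, room-air ventricle 1, 2, 4 or 5, or room-air atrium 1, 3, 4 or 5 (-0.50 to -0.34).

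Of the 77 other fatty acid genes 9 were higher and 5 lower in hyperoxic ventricles, beside 5.64% and 5.28% of all genes. Prkaa2, a catalytic subunit of AMP-activated kinase, had a log2 difference of 0.63, Esrrb, a relative of Esrra, 0.59 and the dehydrogenase Acad9 0.56 (edgeR adjusted p = 0.0022, 0.009 and 0.018). The endothelial genes Fabp4, Fabp5 and Gpihbp1, the last of which holds lipoprotein lipase at the capillary wall, were the lowest at -0.98, -0.76 and -0.74 (edgeR adjusted p = 0.0067, 0.0035 and 0.0014). Capillary endothelial markers had 4 of 9 lower, with sums of 2964 to 3419 CPM in hyperoxic and 4294 to 5114 CPM in room-air ventricles. Fabp4 and Gpihbp1, just named, are among these lower markers and are not a separate reading. Fabp4 alone averaged 968 ± 157 CPM in hyperoxic and 1912 ± 478 CPM in room-air ventricles. Of 6 macrophage markers 2 were higher. Cardiomyocyte markers had 1 of 6 higher and 0 lower. Of 5 atrial cardiomyocyte markers 0 were higher and 2 lower in hyperoxic ventricles, with a median log2 difference of -2.1. Their sums did not overlap, at 221.9 to 843.8 CPM in hyperoxic and 1022 to 1930 CPM in room-air ventricles. The part of these cells in the ventricular differences was not tested.

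The difference between the atrial and the ventricular response was tested directly, as the atrial log2 difference minus the ventricular one. It was positive past the test for 10 of the 37 genes, negative for 3 and not past it for 24, with a median of 0.21 against -0.06 over all genes, of which 36.5% were called (17.0% positive and 19.5% negative). Without the tilted libraries 5 were positive and 3 negative, and 6 of the 13 calls held, beside 26.1% of all genes called in that fit. With the length slope as a covariate 3 were positive and 7 negative, and 4 of the 13 calls held, beside 15.9% of all genes (1114 positive and 1518 negative of 16598).

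Acot2 had the smallest adjusted p of the 37 in this test. Beside its atrial values above, it had 104, 103, 94.9, 119.9 and 84.0 CPM in hyperoxic ventricles, against 132, 124, 113, 128 and 115 CPM in room-air ventricles. The ventricular groups overlapped (log2 difference -0.27, SE 0.12, edgeR adjusted p = 0.14). The difference of responses was 1.47 (SE 0.17, edgeR adjusted p = 3.4e-06), and 1.25 without the tilted libraries (edgeR adjusted p = 9.7e-07). Ucp3 had a difference of -1.06 (SE 0.22, edgeR adjusted p = 0.0011), the fall being steeper in the atrium, and -0.92 without the tilted libraries (edgeR adjusted p = 0.0066). Esrra had 124, 114, 115, 121 and 139.9 CPM in hyperoxic ventricles, against 137, 138, 114, 108 and 109 CPM in room-air ventricles. Those groups overlapped, and its responses differed by 0.58 (SE 0.14, edgeR adjusted p = 0.0026) with all libraries and by 0.58 without the tilted ones (edgeR adjusted p = 0.0012). Pdk4 differed by 0.52 and 0.61 without the tilted libraries (edgeR adjusted p = 0.016 and 0.0019).

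Plin5 had 62.2, 49.8, 60.5, 63.4 and 67.4 CPM in hyperoxic ventricles, against 65.0, 67.9, 60.5, 108 and 53.5 CPM in room-air ventricles. Room-air ventricle 4 stood far above the others, and the responses differed by 1.07 (SE 0.25, edgeR adjusted p = 0.0029), or 0.60 without the tilted libraries (edgeR adjusted p = 0.011). Acadvl had 723, 673, 809, 838 and 858 CPM in hyperoxic ventricles, against 767, 788, 665, 995 and 642 CPM in room-air ventricles. The groups overlapped, and its difference of responses was 0.70 (SE 0.19, edgeR adjusted p = 0.0067), or 0.35 without the tilted libraries (edgeR adjusted p = 0.038). Neither call held in the fit with the length slope (0.30 for Plin5 and 0.12 for Acadvl, edgeR adjusted p = 0.38 and 0.58).

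The calls of Fabp3, Lpl, Cpt1a, Acadl, Etfb and Mlycd did not hold without the tilted libraries. Fabp3 had 2521, 2097, 2467, 2474 and 2781 CPM in hyperoxic ventricles, against 2743, 3306, 2451, 4142 and 2747 CPM in room-air ventricles, and its difference of responses was 0.86, or 0.33 without them (edgeR adjusted p = 0.012 and 0.1). Lpl had 1172, 777, 1408, 887 and 1153 CPM in hyperoxic ventricles, against 1212, 1283, 1068, 1618 and 1173 CPM in room-air ventricles, with a difference of 0.79, or 0.37 (edgeR adjusted p = 0.018 and 0.16). In both genes the highest room-air value was that of ventricle 4. Cpt1a, with 105, 109, 113, 116 and 97.4 CPM in hyperoxic ventricles, against 96.3, 92.4, 103, 79.0 and 104 CPM in room-air ventricles, had a difference of -0.54, or -0.25 (edgeR adjusted p = 0.022 and 0.086). For Cpt1a room-air ventricle 4 was the lowest, and its call ended without hyperoxic ventricle 5 alone (-0.44, edgeR adjusted p = 0.073).

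Etfb had 30.9, 106, 36.1, 95.4 and 29.0 CPM in hyperoxic atria, against 40.9, 29.8, 34.0, 43.7 and 31.0 CPM in room-air atria. Atria 2 and 4 held about 3 times the level of the other hyperoxic atria, which lay in the room-air range or just below it, and the difference of responses of 1.71 became 0.47 without the tilted libraries (edgeR adjusted p = 0.0084 and 0.067). Mlycd had 43.6, 60.9, 44.4, 62.4 and 44.8 CPM in hyperoxic atria, against 42.5, 36.5, 40.1, 47.1 and 43.7 CPM in room-air atria, and 96.5, 99.0, 94.4, 109 and 98.0 CPM in hyperoxic ventricles, against 115, 120.2, 104, 148 and 104 CPM in room-air ventricles. Its difference was 0.54, or 0.23 without the tilted libraries (edgeR adjusted p = 0.013 and 0.11), and that of Acadl 0.58, or 0.29 (edgeR adjusted p = 0.0098 and 0.059). Ppargc1a, the third gene with a negative call, had 45.0, 48.4, 56.2, 44.9 and 54.2 CPM in hyperoxic atria, against 47.6, 47.1, 54.4, 42.9 and 54.8 CPM in room-air atria. Those groups overlapped, and the difference of -0.36 (edgeR adjusted p = 0.04) was not called without the tilted libraries (-0.35, edgeR adjusted p = 0.053). That call also ended without any 1 of 11 libraries (-0.36 to -0.27), namely hyperoxic atria 1, 2 and 4, hyperoxic ventricles 4, 5 and 6, room-air atria 3 and 5, and room-air ventricles 1, 2 and 3.

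Of the 77 other fatty acid genes 10 were positive and 26 negative in this test, beside 17.0% and 19.5% of all genes. Pparg, the nuclear receptor of fat storage, Plin2 and Acot13 stood highest (1.65, 1.01 and 0.98), and the negative ones included the synthetase Acsl3 and the phosphatase Lpin1 (-0.92 and -0.89), with edgeR adjusted p of 4.2e-05, 3.1e-05, 0.01, 3.4e-05 and 0.00083 in that order.

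More of the 37 genes differed between the chambers than between the oxygen levels. In hyperoxia 30 of the 37 genes were lower in the left atrium than in the left ventricle and none was higher, with a median log2 difference of -0.97 against 0.01 over all genes, of which 48.8% were called (25.2% higher and 23.6% lower in the atrium). In room air 33 of 37 were lower and none was higher, with a median of -1.17 against 0.03 over all genes, of which 55.0% were called (28.7% higher and 26.3% lower). By role in hyperoxia 6 of 7 genes of uptake and the lipid droplet, 3 of 4 of the shuttle, 14 of 16 of beta-oxidation, 5 of 6 of fuel selection and 2 of 4 regulators were lower in the atrium. In room air these counts were 7 of 7, 2 of 4, 16 of 16, 5 of 6 and 3 of 4. Without the tilted libraries 32 were lower in hyperoxia and 34 in room air, where Cpt1a alone was then higher in the atrium (0.22, edgeR adjusted p = 0.011). Over all genes that fit called 51.1% in hyperoxia and 57.2% in room air (4357 and 4604 lower of 17011).

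**Figure D5:**
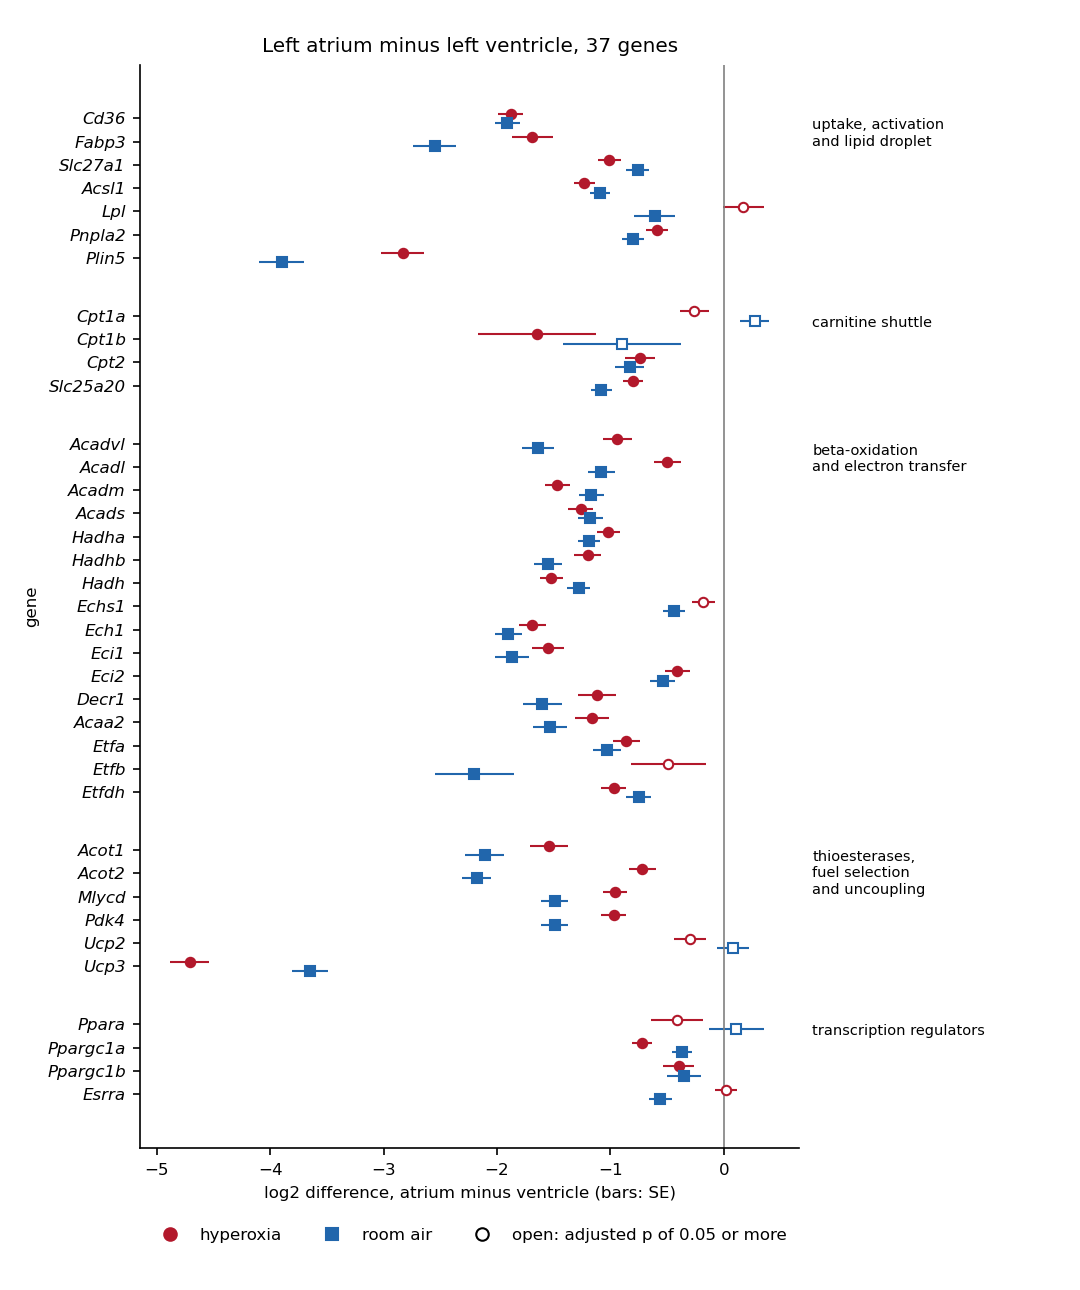
The log2 difference between left atrium and left ventricle is on the horizontal axis for each of the 37 genes, grouped by role, with circles for hyperoxia, squares for room air, bars for the standard error and filled symbols for calls. Nearly all symbols lie left of 0, with Ucp3 (-4.71 and -3.65) and Plin5 (-2.83 and -3.90) farthest, and Cpt1a, Ucp2 and Ppara lie near 0.

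Ucp3 separated the chambers most widely in hyperoxia, with the per-library values given above, and was 0.0381 times the ventricular level in hyperoxic atria (log2 difference -4.71, SE 0.17, edgeR adjusted p = 3.7e-15) and 0.0797 times in room-air atria (log2 difference -3.65, SE 0.16, edgeR adjusted p = 5.7e-14). Plin5 was 0.14 times the ventricular level in hyperoxic atria (log2 difference -2.83, SE 0.19, edgeR adjusted p = 2.8e-11) and 0.0668 times in room-air atria (log2 difference -3.90, SE 0.20, edgeR adjusted p = 3.7e-13). The atrial and ventricular libraries of neither gene overlapped at either oxygen level. Fabp3 had log2 differences of -1.69 in hyperoxia and -2.55 in room air (edgeR adjusted p = 8.8e-08 and 1.9e-10).

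Cd36 had 228, 232, 256, 274 and 293 CPM in hyperoxic atria, against 795, 830.1, 1208, 944 and 958 CPM in hyperoxic ventricles (log2 difference -1.88, SE 0.11, edgeR adjusted p = 2.9e-12). In room air it had 256, 242, 279, 246 and 286 CPM in atria, against 950.2, 1024, 938, 1009 and 1002 CPM in ventricles (log2 difference -1.91, SE 0.11, edgeR adjusted p = 2.3e-12). No atrium reached a ventricle, and no call was made between the oxygen levels in either chamber, at log2 differences of -0.03 in atria and -0.06 in ventricles. Lpl was the exception among the uptake genes in hyperoxia, where atria and ventricles overlapped (log2 difference 0.17, SE 0.18, edgeR adjusted p = 0.44), while in room air it was lower in the atrium (log2 difference -0.61, SE 0.18, edgeR adjusted p = 0.0058). That call ended with the length slope as a covariate (-0.27, edgeR adjusted p = 0.068) and with the Y-linked share added to it (-0.24, edgeR adjusted p = 0.12). Its hyperoxic atrial mean was 1218 ± 355 CPM with all libraries and 975 ± 109 CPM in the 3 that were not tilted.

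In the shuttle, Slc25a20 had 159, 158, 168, 162 and 164 CPM in hyperoxic ventricles, where the atrial values were given above (log2 difference -0.80, SE 0.09, edgeR adjusted p = 2e-07), and in room-air ventricles 167, 163, 147, 197 and 146 CPM (log2 difference -1.08, SE 0.09, edgeR adjusted p = 2e-09). Cpt2 had 64.5, 91.3, 64.2, 90.2 and 71.6 CPM in hyperoxic atria, against 117, 121, 137, 141 and 122 CPM in hyperoxic ventricles (log2 difference -0.74, SE 0.13, edgeR adjusted p = 5.9e-05). In room air it had 74.4, 73.8, 75.0, 79.0 and 77.6 CPM in atria, against 120.0, 134, 109, 193 and 121 CPM in ventricles (log2 difference -0.83, SE 0.13, edgeR adjusted p = 1.3e-05). Neither gene overlapped between the chambers at either oxygen level. Cpt1a, in contrast, averaged 90.2 ± 21.8 CPM in hyperoxic atria against 108 ± 7.27 CPM in hyperoxic ventricles (log2 difference -0.26, SE 0.13, edgeR adjusted p = 0.09), and 115 ± 8.28 CPM in room-air atria against 94.9 ± 10.1 CPM in room-air ventricles (log2 difference 0.27, SE 0.13, edgeR adjusted p = 0.067).

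The ratio of Cpt1b to Cpt1a counts needs no scaling, and was compared as log2 over 4 pairs of groups by exact two-sided permutation tests with Benjamini-Hochberg adjustment over the 4, where the smallest p that 5 against 5 libraries can give is 0.0079. It averaged -6.71 ± 1.61 in hyperoxic atria and -4.58 ± 0.40 in hyperoxic ventricles (SD, n = 5 each, difference -2.13, exact p = 0.0079, adjusted p = 0.032), and was lower in 5 of 5 atria than in any ventricle. Without the tilted atria this difference was -0.97 (exact p = 0.036, the smallest that 3 against 5 libraries can give). In room air the difference was -0.85 (-6.26 ± 0.16 in atria and -5.41 ± 1.23 in ventricles, exact p = 0.18, adjusted p = 0.24), and without room-air ventricle 4 it was -1.39 (exact p = 0.016). Between the oxygen levels the ratio differed by -0.46 in atria (exact p = 0.48, adjusted p = 0.48) and 0.83 in ventricles (exact p = 0.11, adjusted p = 0.22). Without the tilted libraries the atrial value turned to 0.70 with 3 against 5 libraries (exact p = 0.036), and Cpt1b had its 3 lowest counts in the tilted libraries. Since most of its sequence is shared, the ratio describes the counts assigned to Cpt1b and not its mRNA.

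Among beta-oxidation genes the widest chamber differences belonged to Ech1, Eci1 and Hadh in hyperoxia and to Etfb, Ech1 and Eci1 in room air. Ech1, the isomerase for dienoyl-CoA, had 172, 253, 189, 257 and 192 CPM in hyperoxic atria, against 659, 647, 676, 699 and 744 CPM in hyperoxic ventricles (log2 difference -1.69, SE 0.12, edgeR adjusted p = 5.8e-11). In room air it had 199, 171, 187, 209.6 and 179 CPM in atria, against 673, 752, 626, 846 and 635 CPM in ventricles (log2 difference -1.90, SE 0.12, edgeR adjusted p = 8.9e-12). Eci1, an isomerase that shifts double bonds for oxidation, had 54.1, 98.3, 59.4, 94.1 and 61.5 CPM in hyperoxic atria, against 219, 199.6, 199.8, 217 and 242 CPM in hyperoxic ventricles (log2 difference -1.55, SE 0.14, edgeR adjusted p = 7.7e-09). In room air it had 66.3, 60.7, 58.3, 64.7 and 54.5 CPM in atria, against 203, 241, 192, 270.1 and 204 CPM in ventricles (log2 difference -1.87, SE 0.15, edgeR adjusted p = 4.3e-10). Hadh had 126, 177, 133, 181 and 141 CPM in hyperoxic atria, against 425, 405, 406, 482 and 458 CPM in hyperoxic ventricles (log2 difference -1.52, SE 0.10, edgeR adjusted p = 2.5e-11). No atrium overlapped a ventricle for these 3 genes.

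Etfb was called in room air (-2.20, edgeR adjusted p = 1.9e-05) and not in hyperoxia with all libraries (-0.49, edgeR adjusted p = 0.24), where the tilted atria lay above the highest hyperoxic ventricle. Echs1 was likewise called in room air (-0.44, edgeR adjusted p = 0.001) and not in hyperoxia (-0.18, edgeR adjusted p = 0.15). Without the tilted libraries all 16 genes of the role were lower in the atrium at both oxygen levels. The dehydrogenases had log2 differences of -0.94 (Acadvl), -0.50 (Acadl), -1.47 (Acadm) and -1.26 (Acads) in hyperoxia and -1.64, -1.08, -1.17 and -1.18 in room air, all called.

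Acot1 had 13.9, 25.7, 15.7, 21.3 and 15.2 CPM in hyperoxic atria, against 55.7, 63.2, 49.7, 55.8 and 42.9 CPM in hyperoxic ventricles (log2 difference -1.54, SE 0.17, edgeR adjusted p = 1.1e-07). In room air it had 16.6, 14.2, 13.7, 16.4 and 18.7 CPM in atria, against 69.4, 63.5, 60.6, 97.1 and 51.8 CPM in ventricles (log2 difference -2.11, SE 0.17, edgeR adjusted p = 1e-09). Acot2 was 0.609 times the ventricular level in hyperoxic atria and 0.22 times in room-air atria (log2 differences -0.72 and -2.18, edgeR adjusted p = 4e-05 and 3.1e-12), the change already given by the difference of responses. Pdk4 had 109, 80.3, 120.3, 94.7 and 112 CPM in hyperoxic atria, against 190.4, 164, 215, 258 and 186 CPM in hyperoxic ventricles (log2 difference -0.97, SE 0.11, edgeR adjusted p = 2.9e-07), with a log2 difference of -1.49 in room air (edgeR adjusted p = 4.2e-10). Ucp2 did not pass in either, at -0.30 in hyperoxia and 0.08 in room air (edgeR adjusted p = 0.075 and 0.65), unlike its neighbour Ucp3.

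The regulators differed less between the chambers than the enzymes did, as a description of their medians of -0.40 in hyperoxia and -0.36 in room air beside -1.07 and -1.23 for the beta-oxidation genes. Ppargc1a was lower in the atrium in hyperoxia (log2 difference -0.72, SE 0.09, edgeR adjusted p = 1.3e-06) and in room air (log2 difference -0.37, SE 0.09, edgeR adjusted p = 0.0025). Ppargc1b was lower at -0.40 and -0.35 (edgeR adjusted p = 0.024 and 0.046) in hyperoxia and room air. The hyperoxic call ended without hyperoxic atrium 4 or 5 or hyperoxic ventricle 5 or 6 (-0.36 to -0.34). The room-air call ended without room-air atrium 1, 2 or 4, room-air ventricle 1, 3 or 5, hyperoxic atrium 1 or hyperoxic ventricle 1 (-0.36 to -0.25). Esrra was lower in room-air atria (log2 difference -0.56, SE 0.10, edgeR adjusted p = 4.5e-05) and at 0.02 did not pass in hyperoxia (edgeR adjusted p = 0.86). Ppara did not pass at either level, with -0.41 in hyperoxia and 0.11 in room air (edgeR adjusted p = 0.15 and 0.73).

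Of the 77 other fatty acid genes 8 were higher and 40 lower in the atrium in hyperoxia, and 14 higher and 40 lower in room air. Over all genes 25.2% were higher and 23.6% lower in hyperoxia, and 28.7% and 26.3% in room air. Fabp4 and Gpihbp1 of capillary endothelium were lower in both (-3.80 and -3.17 in hyperoxia, -3.36 and -3.08 in room air), as was Pparg in room air (-3.01). Nr2f2, a nuclear receptor that marks atrial identity, was higher in the atrium in both (0.93 and 1.1), Fabp5 and Acsl5 in hyperoxia (0.95 and 0.35), and Lpin1 and Nrip1, a corepressor of oxidative genes, in room air (0.76 and 0.70). All 11 of these values passed the edgeR test. The summed cardiomyocyte markers were 21920 to 34740 CPM in hyperoxic atria and 40440 to 44820 CPM in hyperoxic ventricles, and 25180 to 31930 CPM in room-air atria and 36840 to 52060 CPM in room-air ventricles. Capillary endothelial sums were 712.7 to 942.6 CPM in hyperoxic atria and 2964 to 3419 CPM in hyperoxic ventricles, and 1415 to 1604 CPM in room-air atria and 4294 to 5114 CPM in room-air ventricles. These sums include Fabp4 and Gpihbp1. The part of these cell types in the chamber differences was not tested.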

How the data were processed

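Total RNA of left atria and left ventricles from 20 libraries was sequenced after TruSeq Stranded mRNA preparation, per the labels. The labels name the Direct-zol kit for extraction and the series' design text the RNeasy plus kit. The authors deposited 1 table of raw counts per gene for each library. The submitters' processing notes name fastp 0.20.1, STAR 2.7.6a, Subread 2.0.1 with featureCounts, Salmon 1.3.0 and the build GRCm38.p6, while the annotation release and strand setting are not given in the sources used here. The depth of 26510081 to 38244117 counts sets the precision of low genes such as Ucp3 in atria.

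Groups were taken from the library titles. Counts of all 20 libraries were fitted with edgeR 4.0.16 in R 4.3.3 (filterByExpr, TMM scaling, robust quasi-likelihood with 4 group coefficients, common BCV 0.183), and p-values were adjusted over 16598 genes at 0.05. Each SE was taken from the F statistic (absolute log2 difference over its root). Alternatives used limma 3.58.1 (voom) and DESeq2 1.42.0, and the steps were tested on simulated data. Length slopes used 11128 genes with at least 5 CPM. Replicates differed by more than counting noise (smallest chi-square per degree of freedom 13.3). The members and gene lists were chosen with earlier results of these data known. Genes named were, by rule, up to 3 called per role with the widest log2 difference in each comparison, and up to 3 per direction of the wider list among genes of at least 5 CPM. Genes cited beyond it were chosen after their values were seen. 1 gene of the wider list is not reported here.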

Additional observations from a re-analysis of the deposited data

Results flagged for a closer look

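In the groups of 5 libraries, 7 of 148 gene and group combinations held a library far from the rest by Dixon's test (critical value 0.71), and chance gives about 1 in 20. Room-air ventricle 4, which was tilted to short transcripts, was the highest of its group for 6 of them. Acsl1 stood at 468.2 CPM there, against 395.3 to 415.4 CPM in the other room-air ventricles. Plin5 stood at 108.4 CPM against 53.5 to 67.94 CPM, and Hadhb at 432.4 CPM against 288.5 to 327.0 CPM. Decr1 stood at 537.2 CPM against 284.8 to 353.0 CPM, Etfb at 308.7 CPM against 106.3 to 157.5 CPM, and Pdk4 at 256.0 CPM against 213.6 to 225.0 CPM. The remaining one was Acaa2 in hyperoxic ventricle 1, at 953.9 CPM against 1037 to 1064 CPM in the other hyperoxic ventricles.

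The response to hyperoxia differed between atrium and ventricle for 13 of the 37 genes by the edgeR test of the difference. That test called 36.5% of all genes, near the share of the 37. Without the tilted libraries 6 of the 13 calls held, and with the length slope as a covariate 4 held. The atrial minus ventricular value was 0.86 for Fabp3, 0.79 for Lpl, 1.07 for Plin5, 0.70 for Acadvl, 0.58 for Acadl, 1.71 for Etfb, 1.47 for Acot2, 0.54 for Mlycd, 0.52 for Pdk4 and 0.58 for Esrra. It was -0.54 for Cpt1a, -1.06 for Ucp3 and -0.36 for Ppargc1a. Adjusted p ranged from 3.4e-06 for Acot2 to 0.04 for Ppargc1a.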

How the results depend on the processing

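Of 6549 recomputed gene values, 5930 kept their direction and side of the threshold, and 229 turned sign without being called in either fit. A further 226 lost and 139 gained a call, and 25 turned sign with a call in one of the fits, and the cause was not tested. In atria, Cpt1b became 0.61 without the tilted libraries. With the length slope, Cpt1b became 0.90, Cpt2 -0.28 and Etfb -0.38. Among the 13 libraries in which Y-linked reads outnumber Xist reads, where 1 hyperoxic atrium remains, Pdk4 became -0.003. With Y-linked share and slope together, Cpt2 became -0.42, Fabp3 -0.04, Lpl -0.027, Mlycd -0.063 and Slc25a20 -0.016. In ventricles, Eci1 became 0.25 with the slope and 0.27 with both. The difference of responses became, with the slope, -0.43 for Cpt2, -0.026 for Fabp3, -0.22 for Etfb, -0.32 for Eci2, -0.39 for Eci1 and 0.019 for Cpt1a, and with both, -0.51 for Cpt2, -0.067 for Fabp3, -0.18 for Etfb, -0.021 for Lpl, -0.006 for Mlycd, -0.38 for Eci2 and -0.37 for Eci1.

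The atrial count of called members was 19, and 9 with Y-linked share and slope together. The ventricular count was 9, and 0 with the Y-linked share or with Myl7 (edgeR, 7 and 9 at an unadjusted p under 0.05), 5 with Y-linked share and slope, 1 among those 13 libraries and 1 without the ventricles lying apart. The count for the difference of responses was 13, and 8 without the tilted libraries. Leaving out each library in turn gave 15 to 24 in atria, 4 to 10 in ventricles, 11 to 14 for the difference, 29 to 31 between chambers in hyperoxia and 32 to 34 in room air. The main fit called 43.9%, 10.9%, 36.5%, 48.8% and 55.0% of all genes in that order. DESeq2 called 19, 10 and 14 for atria, ventricles and the difference. Of 16598 genes it called 3740 higher and 4012 lower, 1276 higher and 1516 lower, and 3377 positive and 3191 negative in that order.

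The replicate block gave 19, 8 and 14 in that order, and 32 and 34 between chambers in hyperoxia and room air. Of 16598 genes it called 3386 higher and 4373 lower in atria and 1338 and 1258 in ventricles. For the difference it called 3060 positive and 3830 negative. Between chambers it called 4155 higher and 4047 lower in hyperoxia, and 5008 and 4446 in room air. Within oxygen level the block gave 13 for the difference, and 31 and 33 between chambers. Of all genes that block called 2710 positive and 3475 negative for the difference. Between chambers it called 3722 higher and 3698 lower in hyperoxia, and 4727 and 4238 in room air. Same-numbered libraries correlated from -0.322 to 0.627 between oxygen levels in atria, where the animals differ. Between the chambers of 1 oxygen level they correlated at 0.012 to 0.265 in hyperoxia and -0.056 to 0.563 in room air, where numbers 3, 4 and 5 matched best with their own (0.511, 0.563 and 0.27). Not every pair exceeded 0.1, and the main fit did not take the numbers to pair libraries. In hyperoxia, number 2 had more Y-linked than Xist reads in both chambers, and numbers 1, 4 and 5 had more Xist reads in both. Whether same-numbered atria and ventricles came from the same mouse was not settled, and the main chamber tests treated them as independent.

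The Cpt1b to Cpt1a ratio between hyperoxic chambers was -2.39 with the replicate block, where 4 shared numbers allow no exact two-sided p under 0.125, so the p there shows nothing about stability (exact p = 0.12). Between oxygen levels in atria it was 0.70 without the tilted libraries and -0.82 to 0.04 leaving out each library. In ventricles it was 0.29 to 1.04 in the same way, and between chambers in room air -1.39 to -0.64, with -1.39 without the tilted libraries. Shared sequence and low counts limit Cpt1b, and depth limits Ucp3 in atria.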
